A study of Drosophila melanogaster with 2 samples.

Results

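The regions described here are the peaks of GFP-tagged CG7271 whose summits lay in protein-coding sequence away from promoters. A summit, the position the authors gave as the centre of a peak, was taken as a member where it lay over 500 bp from every transcription start site (TSS) of the Ensembl annotation and inside an annotated coding segment. Transposable elements were not counted among the TSSs. Of the 30000 peaks of the pooled list, 20925 were distal by this rule, and 1691 of these lay in coding segments. A further 662 coding summits lay within 500 bp of a TSS and are not members.

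The study mapped CG7271, a Drosophila melanogaster gene known by its annotation number, by chromatin immunoprecipitation and sequencing (ChIP-seq). Both libraries, biological replicates 2 and 3, came from whole embryos aged 0 to 4 h of 1 transgenic line that stably makes CG7271 fused to GFP at its C-terminus. Chromatin was sonicated to 200 to 800 bp and precipitated with an anti-GFP antibody, although the antibody label itself names CG7271. The 2 libraries form 1 group, and the control alignment that the authors used in peak calling was not analysed here. The whole embryo mixes all cell types of its age, and the fusion protein is made beside whatever untagged CG7271 the line still has, which the labels do not state.

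Sequence-specific proteins are found mostly at promoters and at enhancers, which in flies lie largely in introns and between genes. Coding exons carry the codons of a protein, are rich in G and C, and are usually depleted of regulatory sites, although enhancers that overlap coding exons are known. A peak in ChIP-seq reports where tagged protein was recovered with the DNA, whether it touched that DNA itself or was held there by other proteins or by contact with a distant site.

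A short word was read in the windows of 12 of the 14 members of highest signal, and not in those of otp and CG10357. It is TTCCG, read as CGGAA on the other strand, and in 8 of the 14 it stood as 2 copies on 1 strand with 1 base between them (TTCCGNTTCCG, where N is any base). The letters GGAA within CGGAA are the core known from binding sites of the ETS family of transcription factors, none of which was measured here. The bases within 50 bp of the summit are shown for 8 of the 9 highest members (that of otp, which has no copy, is not shown), those with the pair first, with every copy of the word on either strand in capitals. They are read from the RefSeq copy of the dm6 assembly on the strand of the gene, 5′ to 3′.
Pde1c, chr2L:11816540-11816640, minus strand: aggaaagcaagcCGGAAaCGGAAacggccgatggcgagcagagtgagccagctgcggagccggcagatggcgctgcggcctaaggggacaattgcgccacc
Hnf4, chr2L:8689971-8690071, minus strand: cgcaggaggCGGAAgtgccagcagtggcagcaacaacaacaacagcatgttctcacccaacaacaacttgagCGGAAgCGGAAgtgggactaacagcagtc
Lgr4, chrX:13172978-13173078, minus strand: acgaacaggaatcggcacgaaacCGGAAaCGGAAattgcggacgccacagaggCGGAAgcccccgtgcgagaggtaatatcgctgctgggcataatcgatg
GATAd, chr2L:10336928-10337028, plus strand: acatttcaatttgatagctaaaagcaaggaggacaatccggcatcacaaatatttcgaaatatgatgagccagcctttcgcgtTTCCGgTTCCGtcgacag
Ptp99A, chr3R:29462426-29462526, plus strand: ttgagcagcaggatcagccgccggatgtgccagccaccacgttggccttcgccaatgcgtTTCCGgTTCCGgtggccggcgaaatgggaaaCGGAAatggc
l(3)mbn, chr3L:6124770-6124870, minus strand: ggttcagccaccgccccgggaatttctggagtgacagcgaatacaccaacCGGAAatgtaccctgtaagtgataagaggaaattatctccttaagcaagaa
CG43897, chr3L:9820419-9820519, plus strand: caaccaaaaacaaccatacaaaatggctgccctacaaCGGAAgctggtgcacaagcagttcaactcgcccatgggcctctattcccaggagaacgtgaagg
CG10357, chr3L:3616496-3616596, plus strand: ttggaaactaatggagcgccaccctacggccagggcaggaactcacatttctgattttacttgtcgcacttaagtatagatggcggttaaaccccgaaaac

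In these windows Pde1c, Hnf4, Lgr4, GATAd and Ptp99A held the pair. The windows of l(3)mbn and CG43897 held 1 copy, and that of CG10357 held none. The window of CG10357 was coding over 51 bases, since its summit was the last base of a coding segment, and that of l(3)mbn over 63. Those of Hnf4, Lgr4 and Ptp99A were coding throughout, those of Pde1c, CG43897 and GATAd over 80, 79 and 84 bases. These letters were chosen after the windows of the 14 highest members had been read, so their counts in those members describe the choice. They were then counted in the lower members and in all other sequence.

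Coding sequence held fewer distal peaks than its length. It made up 16.1% of distal bases and held 8.08% of distal summits (exact 95% interval 7.72 to 8.46%, 1691 of 20925). That is 90.9 summits per Mb of distal coding sequence (Poisson 95% interval 86.6 to 95.3), against 198 per Mb (195 to 201) over all other distal sequence. Introns held 214 per Mb (210 to 218), intergenic sequence 165 (161 to 170), 3′ UTRs 217 (205 to 229) and 5′ UTRs 320 (282 to 362). The interval for coding sequence overlapped with none of these. No test was made of any difference given here, because peaks of 1 group of 2 libraries are not replicates. The intervals cover the counting error of peaks only, and peaks in the same gene are not independent.

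**Figure D1:**
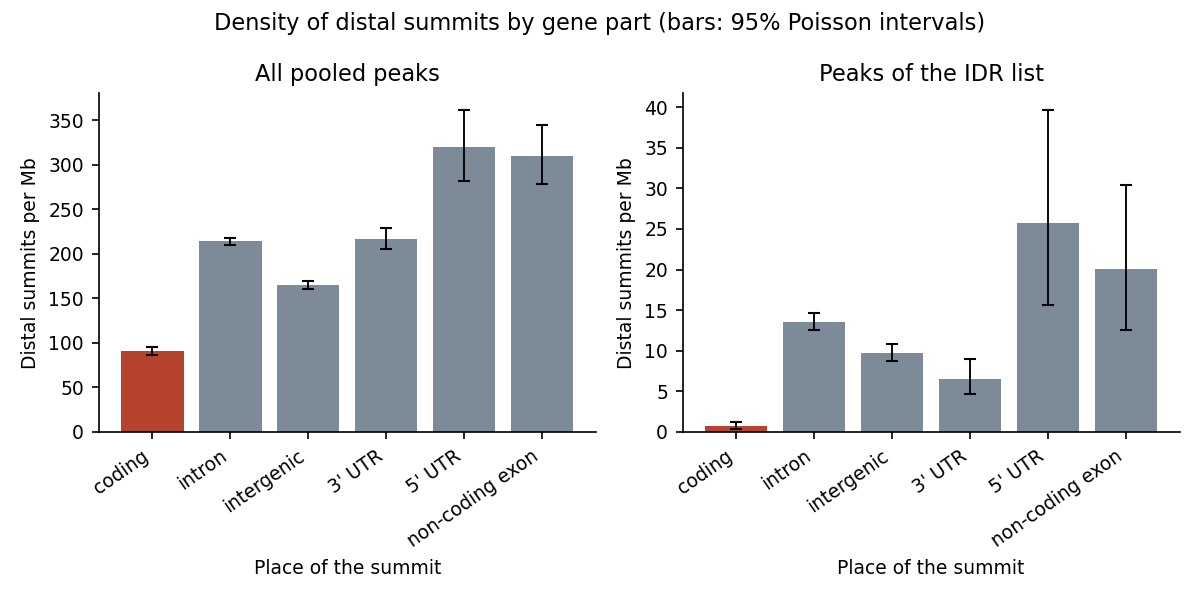
Distal summits per Mb of each kind of sequence, for all pooled peaks (left) and for the peaks of the IDR list (right), with 95% Poisson intervals. Coding sequence, in red, held 90.9 pooled and 0.752 IDR summits per Mb, the lowest value in both panels.

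The gap was wider among strong peaks. The authors deposited a list of peaks thresholded by the irreproducible discovery rate (IDR), a measure of how alike 2 replicates rank a peak. This IDR list holds exactly the 2445 pooled peaks of highest signal, 8.15% of the pooled list, so its edge is a cut by signal. Among distal peaks 5.57% were in it. Of the coding members, 14 were in it (0.828%, 0.453 to 1.39%), against 1152 of 19234 other distal peaks (5.99%, 5.66 to 6.33%). Per Mb this is 0.752 (0.411 to 1.26) in coding sequence and 11.9 (11.2 to 12.6) in other distal sequence. Introns had 13.5 IDR summits per Mb and 3′ UTRs 6.54. The interval of coding sequence lay below those of both (12.6 to 14.6 in introns, 4.65 to 8.94 in 3′ UTRs). Another 2 members, at CG12911 (rank 10244) and Ca-alpha1T (rank 12816), overlapped an IDR peak without being one.

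By signal, a value the authors gave each peak without stating its scale, the members stood low in the list. Their median rank was 20593 (95% interval 20082 to 21046, rank 1 being the highest signal), against 16464 (16262 to 16674) for other distal peaks. Their signal ran between 37.7 and 796 with a median of 44.7, against a median of 49.3 at other distal peaks. The authors' q value was 0.05 or less at 105 members (6.21%, 5.11 to 7.47%), against 19.9% of other distal peaks (19.3 to 20.5%) and 25.7% of all pooled peaks. The coding share of distal peaks was 1.20% (0.658 to 2.01%) at ranks 1 to 2445 and 3.26% at ranks 2446 to 7500. It was 6.55% at ranks 7501 to 15000, 9.81% at ranks 15001 to 22500 and 11.2% at ranks 22501 to 30000. Each of the first 4 shares was below the next, and only the last 2 intervals touched, at 10.4 to 10.6%. All 5 were below the coding share of distal bases.

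**Figure D2:**
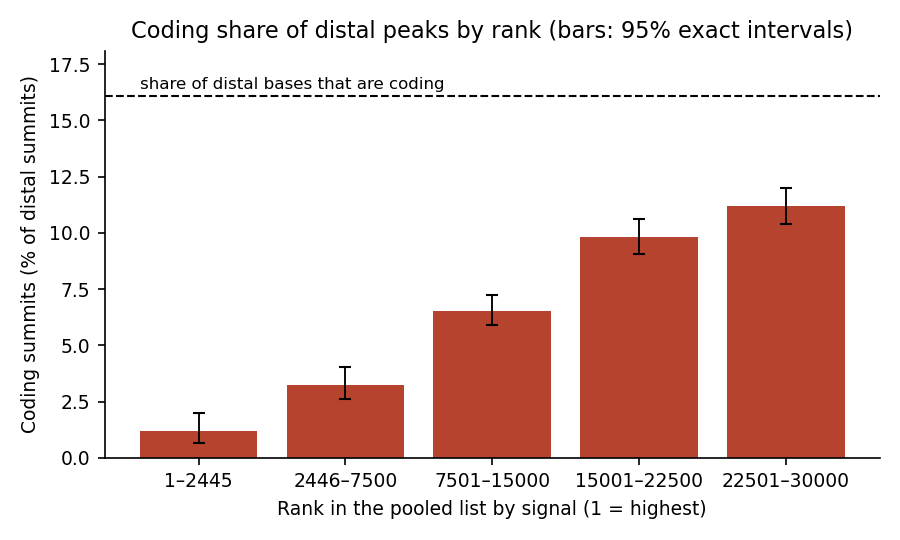
Share of distal summits that lay in coding sequence, by rank in the pooled list, with exact 95% intervals; the dashed line is the coding share of distal bases, 16.1%. The share was 1.20% in the highest class of rank and 11.2% in the lowest.

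A summit of both replicate lists lay within 100 bp of the pooled summit at 337 members (19.9%, 18.0 to 21.9%). Over all pooled peaks this held for 36.4%, over distal peaks for 31.7%, and over the other distal peaks for 32.7% (32.0 to 33.4%). Of the 1691 members, another 766 had a summit in the replicate 2 list alone, 330 in the replicate 3 list alone, and 258 (15.3%, 13.6 to 17.1%) in neither. Of the 19234 other distal peaks, 6814 had one in the replicate 2 list alone and 3767 in the replicate 3 list alone. Over all 30000 pooled peaks these counts were 10065 and 5685, so replicate 2 alone was the more frequent there too. Other distal peaks had one in neither list in 12.3% (11.8 to 12.8%). The lower share found in both went with the lower rank. At ranks 2446 to 7500 it was 81.4% of members and 78.8% of other distal peaks, at ranks 7501 to 15000 it was 44.3% (39.0 to 49.7%) and 45.8% (44.4 to 47.2%), and at ranks 15001 to 22500 it was 15.7% (12.8 to 19.0%) and 14.5% (13.5 to 15.5%). In these 3 classes the intervals overlapped. In the lowest class it was 1.63% of members (0.815 to 2.89%) and 2.94% of other distal peaks (2.50 to 3.42%), and these intervals overlapped as well. All 14 members of the IDR list had summits in both lists, as did 97.0% of the other distal peaks in it (95.9 to 97.9%). That list is a cut of the pooled peaks by signal, and the pooled peaks were called on both replicates.

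The highest member lay in Pde1c, which encodes a cyclic nucleotide phosphodiesterase (2L, summit 11816590, minus strand). It ranked 10 in the pooled list with a signal of 796, rank 10 in the replicate 2 list and rank 13 in the replicate 3 list. Its summit lay 29 bp inside a coding segment of 146 bp that all 9 coding transcripts of the gene include. The nearest TSS was that of another gene, CycY, 2810 bp away, and Pde1c's own nearest TSS was 5035 bp away. The peak was 326 bp wide and 44.8% of it was coding.

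The second member lay in otp, which encodes the homeodomain protein Orthopedia (2R, summit 20884594). It had rank 164 and signal 378, with ranks 159 and 192 in the replicate 2 and replicate 3 lists. Its peak was 184 bp wide and coding throughout, and its window held no copy of the word. l(3)mbn followed at rank 326 (signal 288, ranks 299 and 394) and CG43897 at rank 503 (signal 235, ranks 483 and 673). These 4 members stood within the first 673 peaks of both replicate lists. The summit of l(3)mbn lay 578 bp from the TSS of another gene, asRNA:CR46005, near the distance limit.

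Of the other members of the IDR list, 3 lay in genes of DNA-binding proteins. Hnf4, which encodes a nuclear receptor, had rank 757 and signal 195 (ranks 935 and 704 in replicates 2 and 3). GATAd, a GATA-type zinc finger gene, had rank 1354 and signal 150 (ranks 1109 and 1943), and lmd, the zinc finger regulator of fusion-competent myoblasts, rank 2204 and signal 121 (ranks 4487 and 1697). Each of these 3 summits was coding in all annotated coding transcripts of its gene.

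Another 3 lay in genes of membrane receptors, a grouping for the order of the text only. Lgr4, a leucine-rich repeat G protein-coupled receptor, had rank 768 and signal 194 (ranks 565 and 1486). Ptp99A, a receptor tyrosine phosphatase of growing axons, had rank 1420 and signal 146 (ranks 1274 and 1956). mGluR, the metabotropic glutamate receptor on chromosome 4, had rank 1681 and signal 137 (ranks 2922 and 936). The summit of Ptp99A was coding in 3 of 5 coding transcripts and lay 604 bp from a TSS of the same gene, near the distance limit.

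The remaining members of the IDR list were CG10357 (rank 885, signal 182), meru, which encodes an adaptor of planar polarity in sensory organ precursors (rank 1492, signal 144), Mid1 (rank 1627, signal 138) and SP1173 (rank 2102, signal 124). In the replicate lists CG10357 ranked 933 and 1315, meru 940 and 3137, Mid1 1230 and 2149, and SP1173 2165 and 3235. With mGluR and lmd, meru and SP1173 are the members of the IDR list that stood below rank 2445 in 1 replicate.

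Just below the IDR list stood grnd, a tumour necrosis factor receptor gene (rank 2497, signal 114), nahoda (2612, signal 112), CG12620 (2632, signal 112), CG14853 (2844, signal 108), bru2, an RNA-binding protein gene of the Bruno family (3142, signal 103), and TpnC73F, a troponin C gene (3176, signal 103). Of these 6, CG12620, CG14853 and bru2 had summits within 100 bp in both replicate lists, and grnd, nahoda and TpnC73F in the replicate 2 list alone. The summit of TpnC73F lay 1 bp from the edge of a coding segment of 26 bp, and 6.84% of its peak was coding.

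**Figure D3:**
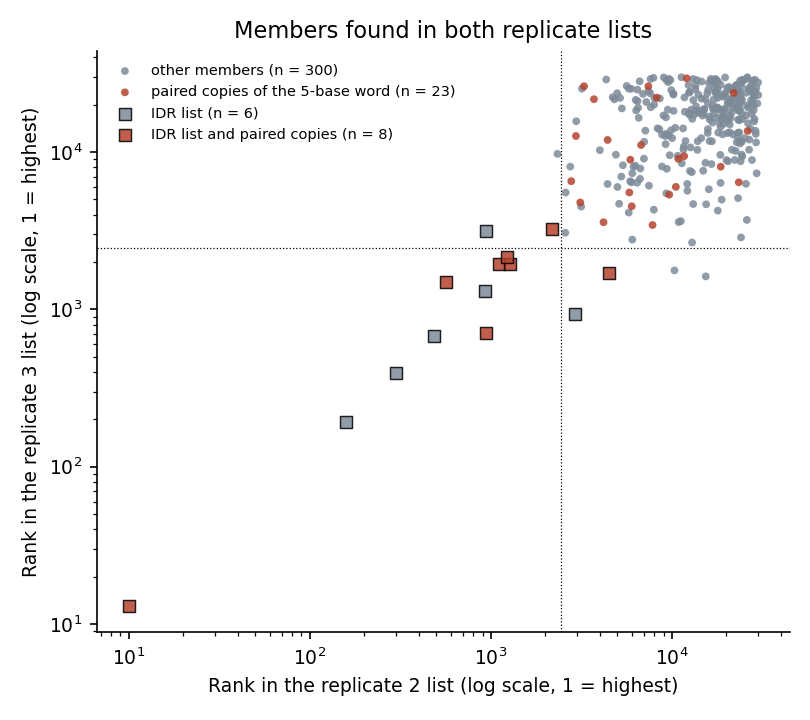
Ranks in the replicate 2 list (x axis) and the replicate 3 list (y axis) of the 337 members found in both, on log scales; dotted lines mark rank 2445, squares are members of the IDR list and red marks paired copies of the word. Pde1c stands alone at ranks 10 and 13, and most members lie beyond rank 2445 in both lists.

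Copies of TTCCG were then counted in the members whose windows had not been read. At least 1 copy lay within 50 bp of the summit at 37.2% of those of rank 2446 to 7500 (27.0 to 48.3%, 32 of 86) and at 24.8% of those of rank 7501 to 15000 (20.3 to 29.7%). It was 19.8% and 23.4% in the 2 lowest classes. Windows of the same length tiled over all distal coding sequence held it in 19.0% of 184101 cases. Other distal peaks held it in 14.2% (12.9 to 15.7%) at ranks 2446 to 7500.

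The pair with 1 base between the copies followed rank more steeply. It was present at 14 of 86 members of rank 2446 to 7500 (16.3%, 9.20 to 25.8%) and at 11 of 343 of rank 7501 to 15000 (3.21%, 1.61 to 5.67%). In the lower classes it was present at 6 of 572 (1.05%) and 4 of 676 (0.592%, 0.161 to 1.51%). Tiled coding windows held it in 0.148%, which lies below the interval of each of these classes. The 8 members of the IDR list with the pair, which gave the pattern, were Pde1c, Hnf4, Lgr4, GATAd, Ptp99A, Mid1, SP1173 and lmd. Their share, 57.1% of 14 (28.9 to 82.3%), is a description of the choice. SP1173 held 6 copies of the word on 1 strand of its window.

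**Figure D4:**
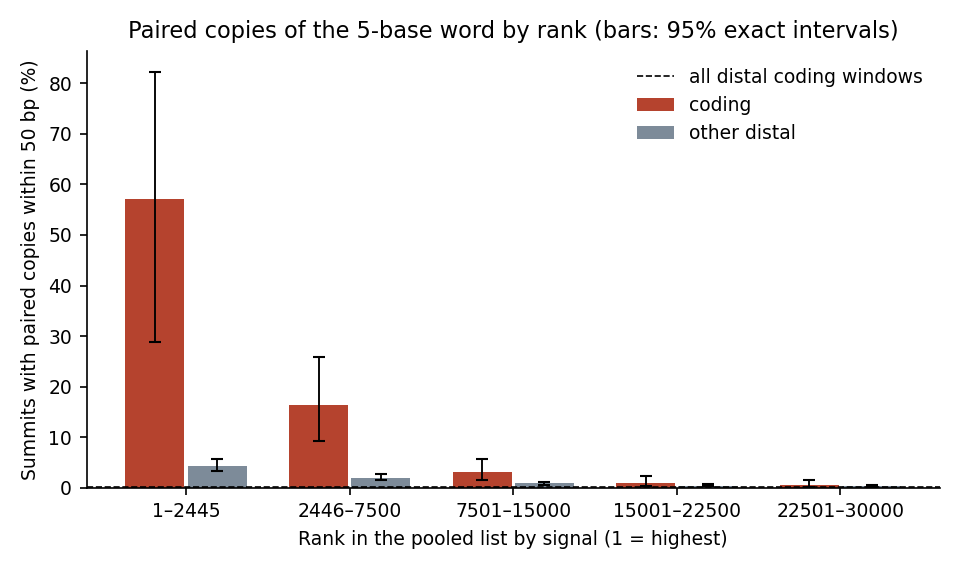
Share of summits with paired copies of the word within 50 bp, by rank in the pooled list, for coding members (red) and other distal peaks (grey), with exact 95% intervals; the dashed line is the share of tiled coding windows, 0.148%. The pair was chosen from the coding members of the highest class (57.1%); below it, coding members held the pair in 16.3% at ranks 2446 to 7500 and 0.592% in the lowest class, other distal peaks in 2.04% and 0.390%.

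At ranks 2446 to 7500 the pair was present at 16.3% of coding members (9.20 to 25.8%), 2.04% of other distal peaks (1.53 to 2.67%, 52 of 2549) and 1.31% of intron peaks (0.811 to 1.99%, 21 of 1607). The interval of the coding members lay above both. Peaks in 3′ UTRs were not split by rank on their own. Outside the IDR list, at all ranks together, they held the pair in 1.92% (1.23 to 2.84%, 24 of 1253). Coding members there held it in 2.09% (1.46 to 2.89%, 35 of 1677), and these intervals overlapped. The pair was thus not particular to coding peaks. At ranks 7501 to 15000 it was present at 3.21% of coding members (1.61 to 5.67%) and 0.858% of other distal peaks (0.619 to 1.16%). In the IDR list, where the coding members gave the pattern and cannot be compared, the pair was present at 2.10% of intron peaks (15 of 715), 2.81% of intergenic peaks (10 of 356), 16 of 39 peaks in 3′ UTRs, 8 of 20 in 5′ UTRs and 0.938% of promoter peaks (12 of 1279).

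Other spacings were rarer. Outside the IDR list, whose members gave the spacing of 1 base, it was present at 14 of the 86 members of rank 2446 to 7500. With 0 or with 2 to 12 bases between the copies, no spacing was present at more than 2 of these 86. Among the 1591 members of lower rank the spacing of 1 base was present at 21 (1.32%) and no other spacing at more than 3. In tiled coding windows the 1-base spacing was also the most frequent, at 0.148% against 0.0119 to 0.0652% for the others.

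**Figure D5:**
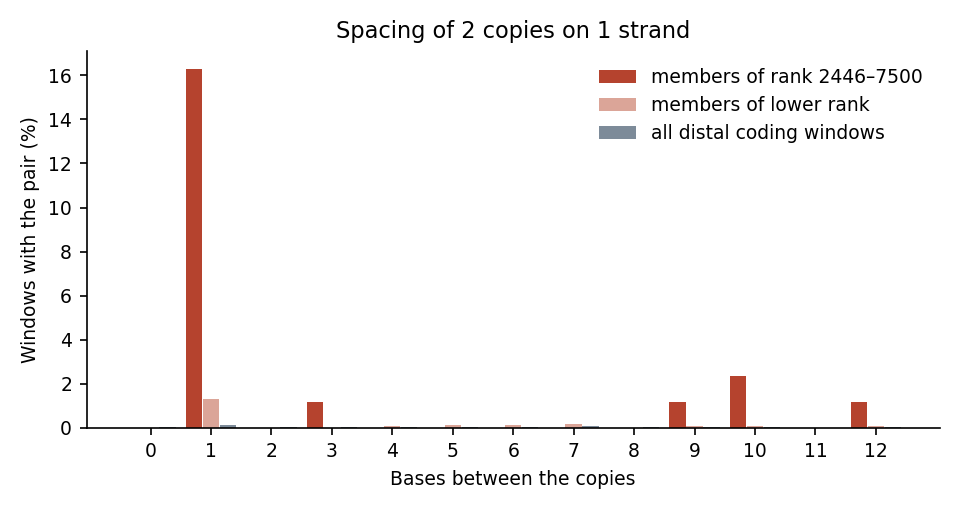
Share of windows of 50 bp to either side of a centre with 2 copies of the word on 1 strand, by the number of bases between the copies, for the 86 members of rank 2446 to 7500, the 1591 members of lower rank and all distal coding windows. The spacing of 1 base was present at 16.3% of the 86 members, and no other spacing at over 2.33%.

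The pair was present at 43 members in 43 different genes. Without the 8 of the IDR list, the 35 others had a median rank of 9281 (6312 to 14003), against 20807 (20307 to 21278) for the 1642 members outside the IDR list that lacked it. Their signal had a median of 62.9, against 44.5. A summit of both replicate lists lay at 65.7% of those with the pair (47.8 to 80.9%) and at 18.3% of those without (16.4 to 20.2%). The q value was 0.05 or less at 14 of 35 and at 4.69%. The GC content of their windows was also higher, with a median of 57.4% against 52.5%, and its part in these differences was not tested. By copies on 1 strand, again outside the IDR list, the median rank was 8802 for 24 members with 3 or more, 15942 for 51 with 2, 21430 for 313 with 1 and 20772 for 1289 with none. A pair is itself 2 copies, so all 35 members with it are among these 24 and 51. The ranks by copies are therefore not separate from those by pair.

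Below the IDR list, members with the pair included bru2 (rank 3142), CG14853 (2844), Lmx1a, a LIM homeodomain gene (3664), the muscarinic acetylcholine receptor gene mAChR-A (3798), bark (4701) and hep, the kinase that activates JNK (5162). At lower ranks they included fus (12274), sgg, the fly GSK3 kinase (16626), and mira, an adaptor of neuroblast division (25157). The pair was thus found at members of all classes of rank, if at few of the lowest.

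The centre of the pair lay a median of 21 bp from the summit, and within 25 bp at 23 of 43 members, those of the IDR list included. The pair was sought only within 50 bp of the summit, which bounds these distances. They were not compared with those of pairs placed at random in the window, so they do not show that the pair is centred on the summit. In 33 of the 43 the copies read CGGAA along the coding strand, and in 10 they read TTCCG. This followed the sequence as a whole: of the paired loci in distal coding sequence, the copies read CGGAA along the coding strand at 37 of 47 with a pooled summit within 50 bp (78.7%, 64.3 to 89.3%) and at 186 of 261 without (71.3%, 65.4 to 76.7%).

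Most paired loci had no peak. Of 308 such loci in distal coding sequence, 47 had a pooled summit within 50 bp (15.3%, 11.4 to 19.8%) and 9 an IDR summit (2.92%, 1.34 to 5.47%), while 0.920% of distal coding bases lay within 50 bp of a pooled summit and 0.00802% within 50 bp of an IDR summit. Without the loci at members of the IDR list it was 39 of 300 with a pooled summit (13.0%, 9.41 to 17.3%). Loci in introns had a pooled summit in 13.4% (10.8 to 16.4%, 83 of 618) and intergenic loci in 12.3% (9.35 to 15.8%, 53 of 431), intervals that overlap with those of coding loci. Loci in 3′ UTRs had one in 38.1% (29.4 to 47.5%, 45 of 118) and loci in 5′ UTRs in 29.3% (16.1 to 45.5%, 12 of 41). The interval for 3′ UTRs lay above both for coding sequence, and the interval for 5′ UTRs overlapped with both.

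The authors also called peaks on each replicate alone, and most of the strong coding peaks of these lists are the loci that gave the pattern. Away from those 14 loci by over 100 bp, the 2445 highest peaks of the replicate 2 list held 7 distal coding peaks, 1 with the pair, and those of the replicate 3 list held 3, none with the pair (up to 70.8% by the exact interval). At ranks 2446 to 7500, again away from the 14, the pair was present at 13 of 104 coding peaks of the replicate 2 list (12.5%, 6.83 to 20.4%) and at 13 of 84 of the replicate 3 list (15.5%). At lower ranks it was 0.751% (0.411 to 1.26%) and 1.19% (0.730 to 1.84%). The pooled list was made from the same reads, so its values are not independent of these.

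A second word, AGATGGCG, was read in the windows of Pde1c, otp and CG10357, 3 of the 14. It was chosen in the same way. Tiled coding windows held it in 0.429% and members outside the IDR list in 0.477% (0.206 to 0.938%). In CG10357 it lay past the end of the coding segment. Of the members of rank 2446 to 7500, 1 of 86 held it (1.16%, 0.0294 to 6.31%), an interval that includes the share of tiled windows.

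Of 9 known motifs, the Zelda site and the TATA box were more frequent at members than in tiled coding windows by more than counting error, and the intervals of the other 7 included the share of those windows. The Zelda site CAGGTAG, bound by the activator of the early zygotic genome, was present at 1.83% of members (1.25 to 2.59%) and in 0.953% of tiled coding windows. None of the 14 members of the IDR list held it. GAGAG, the site of GAGA factor, was present at 11.9% of members and in 12.3% of coding windows, and CGATA, the core of the BEAF-32 site, at 11.9% and in 12.1%. The E-box CANNTG was present at 43.4% and in 43.2%. TATAAA was present at 3.73% of members (2.87 to 4.74%), 2.66% of coding windows and 15.5% of distal intron peaks.

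The promoter motifs DRE (TATCGATA) and M1BP (GGTCACAC) were present at 3 and 5 members (0.177% and 0.296%), against 1.10% and 0.963% of all pooled peaks and 0.0875% and 0.167% of coding windows. The repeat CAGCAGCAG, which encodes glutamine runs in one frame, was present at 3.67% of members (2.82 to 4.68%) and 2.83% of coding windows. Runs of 6 A or T were present at 3.73% of members and 3.54% of coding windows. All motifs were sought on both strands within 50 bp of the summit, and some share letters, as DRE and the BEAF-32 core do. The GC content of member windows was 52.0 ± 8.22% (SD over 1691 windows), against 52.7 ± 7.69% in tiled coding windows and 38.8 ± 9.35% at distal intron peaks.

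Members were densest in short coding segments, although the intervals of neighbouring classes of length overlapped at all limits other than 1000 bp. Segments of up to 200 bp held 132 members per Mb (117 to 148), those of 201 to 500 bp 109 (98.8 to 120), those of 501 to 1000 bp 95.5 (86.9 to 105), those of 1001 to 2000 bp 73.7 (66.0 to 82.0) and longer ones 58.6 (50.5 to 67.6). The median segment was 633 bp long, and 33.9% of members lay in a segment shorter than their peak, so that flanking intron or UTR was in the peak as well. At least 50% of the peak was nevertheless coding at 92.1% of members, and the width was 380 bp for 1689 of 1691. Several of the highest members were exceptions: Pde1c (44.8% coding), l(3)mbn (45.3%), CG43897 (31.3%) and CG10357 (35.5%). At all other members of the IDR list at least 50% of the peak was coding. Of the 14 members of the IDR list, 10 lay in segments of up to 500 bp. There were 5 in segments of up to 200 bp and 5 in those of 201 to 500 bp, against 290 and 425 of all 1691 members. Whether the 14 differ from all members in this was not tested.

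Along the coding sequence, taken as the longest per gene, the first part of 3 equal parts held 98.3 members per Mb (89.5 to 108), the middle part 80.4 (73.8 to 87.5) and the last part 92.1 (85.0 to 99.5). Coding sequence outside the longest coding sequence of its gene held 161 (124 to 206, 64 members). The summit was coding in every coding transcript of its gene at 1419 members (83.9%). The nearest TSS was that of another gene at 611 (36.1%), and 160 (9.46%) lay inside the span of another gene too, so that naming a member by its coding segment does not name a gene it acts on. Members just inside the distance limit, 501 to 600 bp from a TSS, numbered 103, with 1 in the IDR list, a median rank of 20480 and 20.4% found in both replicates. Coding summits just outside it, at 401 to 500 bp, numbered 113, with 2 in the IDR list, a median rank of 19203 and 22.1% found in both.

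Chromosome 4, which is small and largely heterochromatic, had the densest coding members, 66 in 0.255 Mb (259 per Mb, 200 to 329), against 329 per Mb (294 to 368) in its other distal sequence. The X chromosome had the fewest, 56.5 per Mb (48.7 to 65.2), against 162 (156 to 168) in its other distal sequence. The 4 large autosomal arms ranged between 90.9 and 99.5 members per Mb, with overlapping intervals. On every arm coding density was below that of other distal sequence, with a ratio of 0.349 on X, 0.412 on 2L, 0.534 on 2R, 0.461 on 3L, 0.473 on 3R and 0.786 on 4. On chromosome 4 the 2 intervals overlapped. Its 66 members included 1 of the IDR list, mGluR, and none with the pair. Over all members these shares were 0.828% and 2.54%, so that few or none would be counted among 66.

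Members lay in 1471 of 12397 protein-coding genes with distal coding sequence (11.9%). There was 1 member in 1292 of these genes, 2 in 150 and 3 or more in 29. The most were found in CG33978 on chromosome 4, with 7 members of ranks 7589 to 26204. spen, which encodes an RNA-binding transcriptional repressor, had 6 (ranks 10295 to 29612), and bt, the giant muscle protein projectin on chromosome 4, had 6 (11390 to 23646). kis, a CHD chromatin remodeller of the trithorax group, and Cont, the septate junction protein Contactin, had 4 each, and PMCA, the plasma membrane calcium pump on chromosome 4, had 3. None of the members in these 6 genes was in the IDR list or held the pair, where 0.828% and 2.54% of all members did, so that few or none would be counted at those shares. Per Mb of their own distal coding sequence they ranged between 226 (bt) and 959 (Cont).

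Genes with a member had more distal coding sequence than other genes with any, with a median of 1.76 kb against 0.923 kb. A pooled summit lay at a promoter of 69.7% of them (67.3 to 72.0%), against 54.9% of the others (54.0 to 55.9%), and an IDR summit at a promoter of 17.3% (15.4 to 19.3%), against 12.2% (11.6 to 12.8%). The part of gene length in these differences was not tested.

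Of 13 gene lists, 1 had an interval above the density of all distal coding sequence, 90.9 members per Mb, that of gap, pair-rule and Hox genes. These genes had 10 members in 8 of 28 genes (250 per Mb, 120 to 459). They included the pair-rule gene opa (rank 7891, signal 67.6), the gap gene kni (10182, signal 60.5), the nuclear receptor gene ftz-f1 (11134, signal 58.2) and the head gap gene oc (11842, signal 56.7). opa, kni and ftz-f1 had summits within 100 bp in both replicate lists, and oc in the replicate 2 list alone. Maternal axis genes had 10 members in 8 of 24 genes (161 per Mb, 77.2 to 296), among them the polarity kinase gene par-1 (rank 5424, signal 80.1), cact, the inhibitor of Dorsal (15117), and pum, the translational repressor Pumilio (15167). Zygotic cellularisation genes had 3, in kuk, slam and nullo (407 per Mb, 84.0 to 1190). The intervals of the last 2 lists included the overall density.

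Large structural proteins were on the other side. Mucins and apical matrix proteins had 3 members in 183 kb (16.4 per Mb, 3.37 to 47.8), in dyl, dpy and Mur29B. Giant cytoskeletal and muscle proteins had 9 (38.9, 17.8 to 73.9), in Tm2, bt, Zasp52 and 1 other gene, and cadherins and other large adhesion proteins had 7 (49.4, 19.9 to 102). Of these 3 intervals the first 2 lay below the overall density. Of the 9 members in giant cytoskeletal and muscle proteins, 6 lay in bt on chromosome 4. Coding segments of 2001 bp or more held 58.6 members per Mb over all genes (50.5 to 67.6). The part of segment length in the densities of these lists was not tested. Chromatin remodellers and histone methyltransferases had 4 (54.4, 14.8 to 139), RNA polymerase II and its elongation factors 2 (50.3) and heat shock proteins 1 (49.6, Hsp67Bc).

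The other lists stood near or above the overall density with wide intervals. Polycomb and trithorax group genes had 12 members in 9 of 25 genes (106 per Mb, 54.8 to 185), cyclins and mitotic kinases 4 (154, 41.9 to 394), the Notch pathway 3 (84.6, 17.4 to 247, in Su(H), N and mam) and insulator proteins 2 (77.4, in BEAF-32 and pita). Across the 13 lists none of the members was in the IDR list or held the pair. Over all members these shares were 0.828% and 2.54%, so that counts near 0 are the background for lists of this size.

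At the tagged gene itself, CG7271 (3L, 18588759 to 18590165), no pooled summit lay in coding sequence, near to a TSS or far. Within 20 kb there were 9 pooled summits, the highest of rank 489, and 1 of these was a member, in AstC-R1, an allatostatin receptor gene, at rank 29913 with a summit in the replicate 2 list alone.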

How the data were processed

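CG7271-GFP ChIP-seq of 2 biological replicates in 1 group was taken from 4 peak lists on dm6: replicate 2, replicate 3, pooled and IDR. Per the deposited notes, the replicate lists were called by the authors on each alignment against a control, and the pooled list on both. Neither the peak caller, nor the aligner, nor the IDR threshold is given in the sources used here. Each peak has the signal, the −log10 q value and the summit offset that the authors deposited. The −log10 q values stop at 3.70, shared by 2493 pooled peaks, so peaks were ranked by signal. The lists hold no read counts, so read depth is unknown.

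Gene models came from Ensembl release 115 (23581 distinct TSSs) and sequence from RefSeq, which is the same assembly. All steps ran in Python 3.11.15 with pandas 2.3.3, NumPy 2.4.6 and SciPy 1.17.1, and the choice of members, the search for the pair, the sharing of summits and the base counts were tested on simulated data. A summit in several kinds of sequence was counted as coding first. Shares have exact (Clopper-Pearson) 95% intervals and densities Poisson ones; medians have order-statistic intervals. Genes were named by rule: members that overlap an IDR peak, the 20 of highest signal, the 6 genes with most members (a tie by best rank), up to 4 per list, and those within 20 kb of CG7271. The genes below the IDR list that hold the pair were named after their values were seen. Symbols renamed since were matched through RefSeq synonyms held by 1 gene alone, and 236 of the 242 symbols in the lists had a gene. The members and lists were chosen with earlier results of these data known. Each choice was varied as given at the end.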

Additional observations from a re-analysis of the deposited data

How the results depend on the processing

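The number of members was within 1.5 times of 1691 with a TSS distance of 200 or 1000 bp, with RefSeq gene models, with at least 50% of the peak coding, and without either replicate; it was 443 among the 15000 highest pooled peaks, where fewer peaks enter. The coding share of distal peaks was 8.63% with a TSS distance of 200 bp, 6.89% with 1000 bp and 4.90% among the 15000 highest peaks. Leaving out each replicate in turn gave shares of 8.45 to 9.41% and densities of 95.6 to 107 per Mb. The share found in both replicate lists was 13.2% with summits within 50 bp, 26.7% within 200 bp, 26.0% with intervals overlapping by 50% and 53.3% among the 15000 highest peaks. The median GC content was 51.7% within 100 bp of the summit, against 52.5% within 50 bp. The pair was present at 21.4% of the IDR members and 8.14% of those of rank 2446 to 7500 within 25 bp of the summit, a window chosen after seeing the data that takes fewer bases. The cause of the shifts with the TSS distance, the replicate list and the GC window was not tested. The median rank, the share overlapping an IDR peak and the number of genes stayed within their limits in every alternative run. Shares of single motifs moved with the width of the window, which sets how many bases are searched. No paired analysis was possible because the 2 replicates form 1 group and nothing is compared between groups. Read depth is unknown, so what it limits could not be given. The number of members limits shares over the strongest ones: the 14 of the IDR list give an interval of 28.9 to 82.3% for the pair.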
